A study of Rattus norvegicus with 45 samples.

Results

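Complexes II to V of the mitochondrial respiratory chain were followed in rat skeletal muscle through 56 probe sets of 49 genes, out of 31042 probe sets on the array. A probe set was a member if its only platform gene symbol began with Sdha, Sdhb, Sdhc, Sdhd, Uqcr, Cox4, Cox5, Cox6, Cox7, Cox8 or Atp5, or was Cyc1 or Cycs. Signals were analysed as log2(signal + 12.4), and 47 of the 49 genes passed the filter on low mean signal, among 11684 tested genes with 1 symbol. They comprised 8 genes of complex II, 8 of complex III, 15 of the 17 of complex IV and 16 of complex V. Cox6b2 and Cox7b2 were not tested; their signals lay between 3.1 and 226.7 and between 1.6 and 92.4 over the 45 arrays. The members were among the brightest features of the array, with a median percentile of 99.4 for their mean signal over all probe sets. Another 7 probe sets, with Cycs, Cox7a2, Uqcrb, Cox5a, Atp5mc1 or Atp5mc2 as 1 of several symbols, were no members, so cytochrome c itself is not described.

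The respiratory chain passes electrons from nutrients to oxygen in the inner mitochondrial membrane and stores the energy as a proton gradient. Complex II (succinate dehydrogenase) feeds electrons from succinate into the chain, complex III (the cytochrome bc1 complex) passes them to cytochrome c, complex IV (cytochrome c oxidase) hands them to oxygen, and complex V (ATP synthase) uses the gradient to make ATP. Cytochrome c oxidase has small nuclear subunits that come in tissue forms: Cox6a2, Cox7a1 and Cox8b are the forms of heart and skeletal muscle, and Cox6a1 and Cox8a are the forms found in most other cells.

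Female Sprague Dawley rats received cerivastatin, a statin that blocks cholesterol synthesis at HMG-CoA reductase, or its vehicle, 0.5% methylcellulose, for 14 days. The soleus, a mostly slow postural muscle, was sampled at 1.0 mg/kg/day and vehicle, and the gastrocnemius, a mixed muscle of mostly fast fibres, at vehicle, 0.1, 0.5 and 1.0 mg/kg/day. Each dose was given without exercise or with treadmill running at 20 m/min for 20 min a day on 5 days a week, which made 12 groups, 9 of 4 arrays and 3 of 3 arrays (gastrocnemius at 1.0 without exercise and at 0.5 with it, and soleus at 1.0 without it). The study asked what the drug does, what exercise adds and why fibre types differ in sensitivity, and its design text describes the replicates as biological. Whether a soleus and a gastrocnemius came from the same animal is not stated in the labels, and RNA input (3 µg for soleus, 4 µg for gastrocnemius) and muscle cannot be told apart.

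The promoters of 4 members are shown, because they belong to the isoforms and the inhibitor whose transcripts the results turn on. They run from 250 bases before to 50 bases after the annotated start, from RefSeq on build GRCr8, and all 4 lie on the minus strand: Cox8b at chr1:205408224-205408523, Cox6a2 at chr1:192219667-192219966, Cox8a at chr1:213833574-213833873 and Atp5if1 at chr5:150026628-150026927. Capitals mark matches on either strand to the E-box CAGCTG, the core of sites for myogenic factors, to AAGGTCA, a site of estrogen-related receptors, and to CCGGAAG, a site of ETS factors such as GABP.
Cox8b: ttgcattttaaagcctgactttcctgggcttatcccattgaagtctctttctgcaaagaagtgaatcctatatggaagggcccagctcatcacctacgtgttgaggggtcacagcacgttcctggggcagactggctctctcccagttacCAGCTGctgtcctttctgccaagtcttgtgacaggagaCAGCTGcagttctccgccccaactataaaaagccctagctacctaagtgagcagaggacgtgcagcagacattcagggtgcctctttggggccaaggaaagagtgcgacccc
Cox6a2: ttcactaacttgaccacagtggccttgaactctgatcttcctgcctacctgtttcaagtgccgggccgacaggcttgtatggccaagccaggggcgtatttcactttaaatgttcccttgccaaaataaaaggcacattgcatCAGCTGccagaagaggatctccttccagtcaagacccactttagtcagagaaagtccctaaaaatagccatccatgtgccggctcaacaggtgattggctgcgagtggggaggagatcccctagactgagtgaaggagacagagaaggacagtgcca
Cox8a: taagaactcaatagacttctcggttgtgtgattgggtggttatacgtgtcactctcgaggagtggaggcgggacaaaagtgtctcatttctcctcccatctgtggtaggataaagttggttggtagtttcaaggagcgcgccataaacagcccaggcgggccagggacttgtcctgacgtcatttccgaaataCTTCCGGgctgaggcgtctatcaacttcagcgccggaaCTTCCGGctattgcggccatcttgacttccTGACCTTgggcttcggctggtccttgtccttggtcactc
Atp5if1: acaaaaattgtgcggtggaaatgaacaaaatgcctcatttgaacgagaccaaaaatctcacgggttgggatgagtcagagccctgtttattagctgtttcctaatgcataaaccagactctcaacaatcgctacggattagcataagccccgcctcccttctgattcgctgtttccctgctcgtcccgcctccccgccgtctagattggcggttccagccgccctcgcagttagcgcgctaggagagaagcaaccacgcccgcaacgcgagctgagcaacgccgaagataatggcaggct
The muscle forms Cox8b and Cox6a2 held 2 and 1 copies of the E-box and no other motif searched. Cox8a held 1 estrogen-related receptor match and 2 ETS matches, and Atp5if1 held none of the motifs. Cox6a1 had no entry among the RefSeq promoters used here, so Cox8a is the only form of most other tissues shown. The ETS motif was found in 16 of the 42 member genes with a RefSeq promoter (38.1%) and in 8.75% of all 33469 promoters. The NRF1 motif (GCGCA, any base, then GCGC) was found in 9 members (21.4%), against 4.25% of all promoters, and the estrogen-related receptor motif in 8 (19.0%), against 4.61%. The E-box was found in 8 members (19.0%), against 15.1% of all promoters. These were the muscle forms Cox8b, Cox6a2 and Cox7a1, and also Cox4i1, Cox7b, Atp5po, Atp5f1e and Uqcrfs1. The E-box, the ETS and the estrogen-related receptor matches printed above share no letters, and a match describes the letters only.

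Several arrays stood apart from the rest of their group. Among the 4 exercised gastrocnemius arrays at 1.0 mg/kg/day, arrays 2 and 4 had a median member difference from the matched vehicle mean of -1.81 and -1.79 on the log2 scale, against -0.64 and -0.65 in arrays 1 and 3. Array 3 of unexercised gastrocnemius at 1.0 mg/kg/day had 0.05, against -0.64 and -1.26 in arrays 1 and 2 of that group. Array 3 of unexercised gastrocnemius at 0.1 mg/kg/day had -1.66, an actin 5'/3' signal ratio of 0.116, the lowest of all arrays, and a summed adipocyte marker signal of 119083, the highest of all arrays. Array 1 of exercised soleus at 1.0 mg/kg/day had -0.87, an actin ratio of 0.245 and a summed adipocyte marker signal of 94455. Array 3 of unexercised vehicle soleus had -0.46, an actin ratio of 0.255 and a summed adipocyte marker signal of 94033. In 6 of the 15 soleus arrays the fast myosin Myh4 exceeded 10 on the log2 scale.

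**Figure D1:**
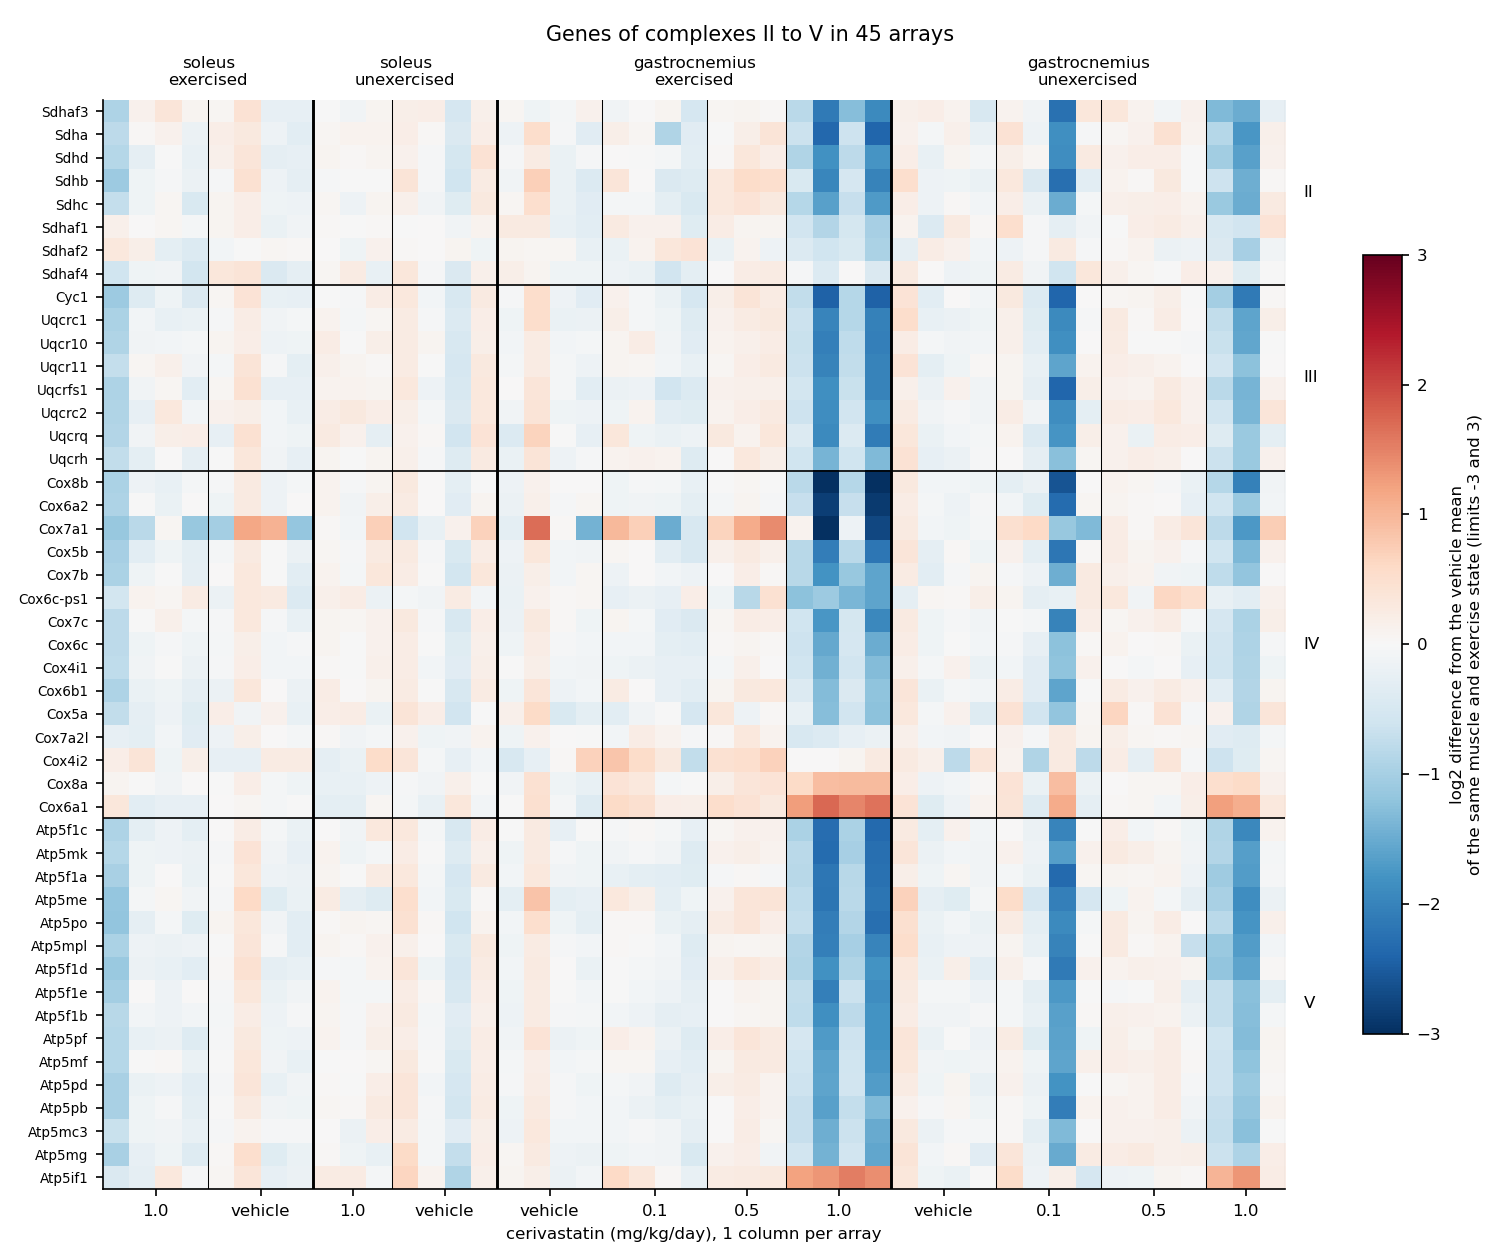
Log2 difference of each of the 47 tested genes (rows, by complex) from the vehicle mean of the same muscle and exercise state, in each of the 45 arrays (columns, by group), with the colour scale limited at -3 and 3. The blue columns at 1.0 mg/kg/day in exercised gastrocnemius are deepest in arrays 2 and 4, and Cox8a, Cox6a1 and Atp5if1 are red there.

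Exercised rats given 1.0 mg/kg/day had less RNA of nearly every subunit of complexes II to V in the gastrocnemius than exercised vehicle rats. Of the 47 tested genes 41 fell, to between 17.4% and 79.9% of the vehicle level with a median of 40.7%, and 3 rose: Cox6a1, Cox8a and Atp5if1. Sdhaf4, Cox7a1 and Cox4i2 did not pass the test. Across all tested genes 21.9% fell and 27.7% rose in this comparison (limma, adjusted p under 0.05, n = 4 against 4), and the median log2 difference was 0.07, against -1.22 over the members. All 4 drug arrays lay below all 4 vehicle arrays for 40 members, against 21.7% of all genes, and above them for 3, against 26.5% of all genes. The complexes moved by similar amounts, with median log2 differences of -1.22 for complex II, -1.31 for complex III, -1.04 for complex IV and -1.31 for complex V; the differences between these medians were not tested. With single arrays left out, 35 to 42 members fell, with a member median of -1.02 without drug array 2 or 4 and of -1.45 and -1.44 without drug array 1 and 3. In bulk muscle, fewer fibres and less RNA per fibre cannot be told apart.

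**Figure D2:**
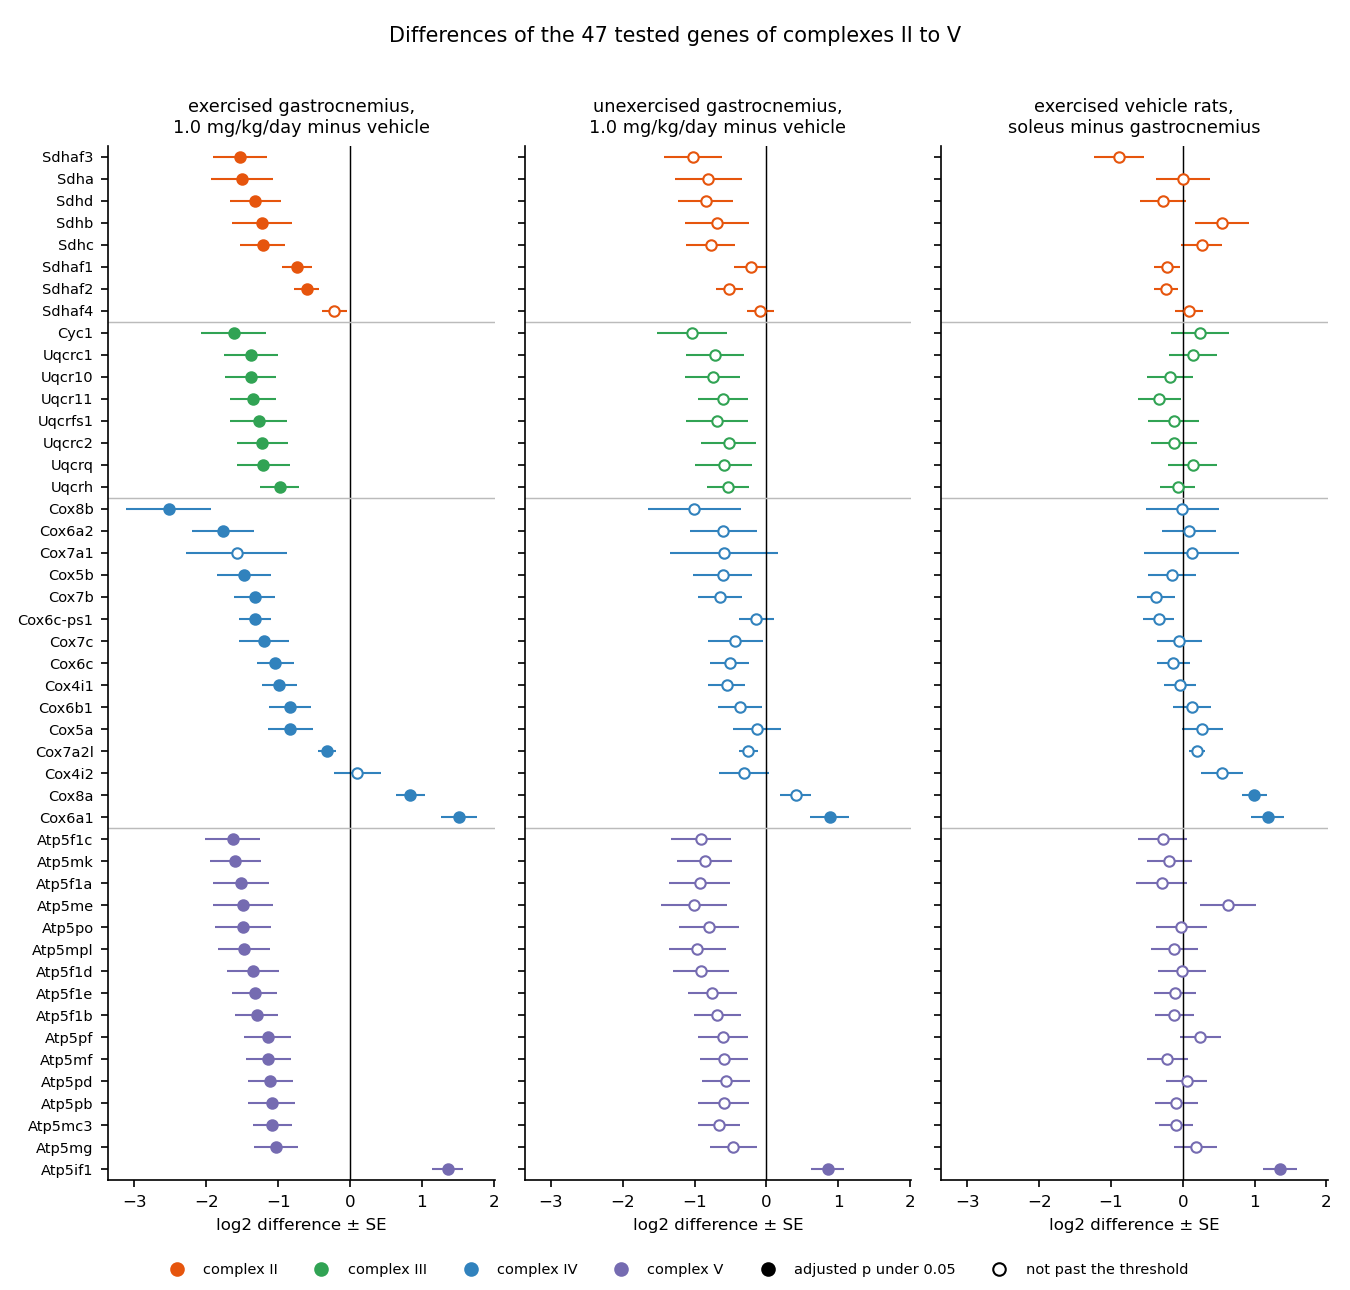
Log2 difference (points) with its SE (lines) of the 47 tested genes, ordered by complex, in exercised gastrocnemius at 1.0 mg/kg/day minus vehicle (left), in unexercised gastrocnemius at 1.0 mg/kg/day minus vehicle (middle) and in soleus minus gastrocnemius of exercised vehicle rats (right). Filled points passed the test. The left panel holds 41 filled points below 0 and 3 above it, and Cox6a1, Cox8a and Atp5if1 lie above 0 in all 3 panels.

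All 4 subunits of succinate dehydrogenase fell, with a median log2 difference of -1.27. Sdha, the flavoprotein that oxidises succinate, had signals of 13775, 4188, 13879 and 4078 in exercised gastrocnemius at 1.0 mg/kg/day, against 19356, 30756, 20755 and 16993 with vehicle. The groups did not overlap, and arrays 2 and 4 were the lowest. Its log2 difference was -1.50 ± 0.43 (SE, limma adjusted p = 0.0061). Sdhb, the iron-sulphur subunit, fell as well (-1.22), as did the membrane anchors Sdhc (-1.22) and Sdhd (-1.32). Of the 4 assembly factors 3 fell, led by Sdhaf3, which in yeast and flies helps mature the iron-sulphur subunit. Sdhaf3 had signals of 1031, 404, 736 and 471 with the drug, against 1897, 1659, 1729 and 1963 with vehicle, without overlap. Its log2 difference was -1.53 ± 0.37 (SE, adjusted p = 0.00169). The other assembly factors moved less, with -0.74 for Sdhaf1, -0.61 for Sdhaf2 and -0.22 for Sdhaf4, of which Sdhaf4 did not pass the test (adjusted p = 0.334). A second probe set of Sdhaf2 gave -2.58, so the size of its fall depended on the probe set.

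All 8 measured subunits of complex III fell, with log2 differences from -1.62 to -0.98. The largest fall was that of Cyc1, cytochrome c1, the heme protein that hands electrons to cytochrome c. Its signals were 14699, 4554, 13534 and 4602 with the drug, against 24104, 35731, 22256 and 19395 with vehicle, which did not overlap. The log2 difference was -1.62 ± 0.45 (SE, adjusted p = 0.00532). Uqcrc1, a core protein on the matrix side, had signals of 16394, 6482, 14069 and 6272 with the drug, against 23289, 36707, 22462 and 22617 with vehicle. Arrays 2 and 4 were again the lowest, and the log2 difference was -1.38 ± 0.37 (SE, adjusted p = 0.00405). The Rieske iron-sulphur protein Uqcrfs1 fell (-1.27), as did the other core protein Uqcrc2 (-1.22), whereas a dimmer probe set of Uqcrc2 gave -0.18 and did not pass the test. The small subunits Uqcr10 (-1.38), Uqcr11 (-1.35), Uqcrq (-1.21) and Uqcrh (-0.98) fell with them.

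Complex IV held both the largest fall and the only rises among the subunits tested. Of its 13 tested subunits 9 fell and 2 rose. The largest fall of all members was that of Cox8b, the muscle form of subunit VIII. Cox8b had signals of 28106, 2521, 27045 and 2715 in exercised gastrocnemius at 1.0 mg/kg/day, against 44360, 53775, 49055 and 49306 with vehicle. All drug arrays were below all vehicle arrays and arrays 2 and 4 were far below arrays 1 and 3. The log2 difference was -2.53 ± 0.60 (SE, adjusted p = 0.00135), or 17.4% of the vehicle level. It was -1.94 without array 2 and -1.98 without array 4, and -3.10 and -3.08 without arrays 1 and 3.

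Cox6a2, the muscle form of subunit VIa, had signals of 31543, 7151, 31648 and 6943 with the drug, against 45056, 56585, 49887 and 53354 with vehicle. It followed the same division of arrays as Cox8b, and its log2 difference was -1.77 ± 0.43 (SE, adjusted p = 0.00178), or 29.3% of the vehicle level. Cox7a1, the muscle form of subunit VIIa, had signals of 999.7, 70.3, 839.8 and 129.8 with the drug, against 765.6, 3022, 952.6 and 342.6 with vehicle. These overlapped, and the difference of -1.58 ± 0.70 did not pass the test (SE, adjusted p = 0.0689).

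The forms found in most tissues went the other way. Cox6a1 had signals of 6326, 8710.5, 7249 and 8156 with the drug, against 2587, 3646, 2539 and 1996 with vehicle. The lowest drug array exceeded the highest vehicle array, and the log2 difference was 1.52 ± 0.25 (SE, adjusted p = 5.87e-05), or 286% of the vehicle level. Cox8a had signals of 8930.1, 11434, 11590 and 11631 with the drug, against 5642, 8284, 5490 and 5196 with vehicle, again without overlap. Its log2 difference was 0.84 ± 0.20 (SE, adjusted p = 0.00141), or 179% of the vehicle level. Arrays 2 and 4, the lowest for the muscle forms, were the highest for Cox6a1, whereas in Cox8a array 1 was below the other 3 drug arrays.

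The remaining subunits of complex IV, which have no tissue form in this set or a tissue form of another kind, mostly fell. Cox4i1, the common form of subunit IV, had signals of 30829, 17090, 31618.5 and 18843 with the drug, against 46708, 53056, 44171 and 43733 with vehicle. It fell by 0.98 ± 0.24 on the log2 scale (SE, adjusted p = 0.00167), but by 0.34 after quantile normalization, where it no longer passed the test (adjusted p = 0.111). Cox4i2, a form known from lung and from low oxygen, had signals of 192.5, 191.6, 202.9 and 232.8 with the drug, against 132.7, 156.6, 195 and 313.8 with vehicle, which overlapped (log2 difference 0.10 ± 0.32, SE, adjusted p = 0.821). Cox5b (-1.47), Cox7b (-1.33), Cox7c (-1.20), Cox6c (-1.04) and Cox6b1 (-0.84) fell on the log2 scale. Cox5a fell by 0.83 although its arrays overlapped. Cox7a2l, which helps join complexes III and IV into supercomplexes, fell by 0.32, the smallest change that passed. Cox6c-ps1, annotated as a pseudogene of Cox6c, fell by 1.32, and whether its probes also bind Cox6c transcripts was not tested.

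**Figure D3:**
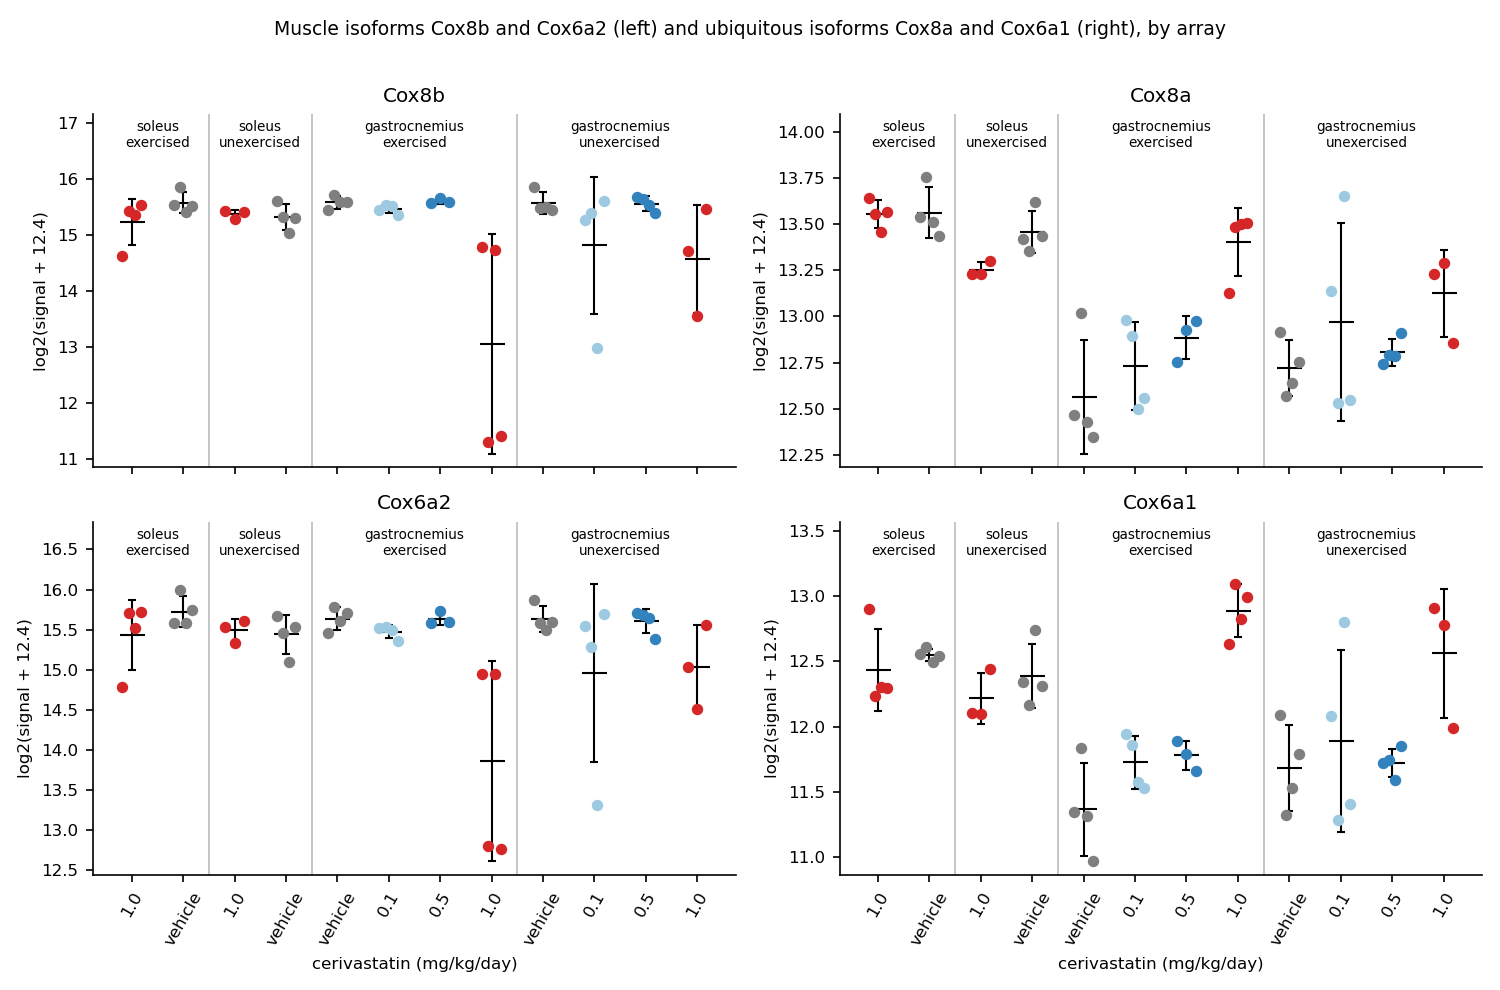
Log2(signal + 12.4) of the muscle forms Cox8b and Cox6a2 (left) and of Cox8a and Cox6a1 (right) in each array (points), with the group mean and SD (bars), by muscle, exercise state and dose of cerivastatin in mg/kg/day. At 1.0 mg/kg/day in exercised gastrocnemius the muscle forms lie below vehicle, in 2 pairs of arrays, and the other forms above it.

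All 15 tested subunits of ATP synthase fell, within a narrow band of log2 differences from -1.63 to -1.03. Among the subunits of the catalytic head, Atp5f1c, the central stalk, fell most. Its signals were 25169, 9886, 25090.4 and 9608.5 with the drug, against 48019, 58865, 40778 and 48455 with vehicle, with arrays 2 and 4 lowest and no overlap. The log2 difference was -1.63 ± 0.39 (SE, adjusted p = 0.00134). The catalytic pair Atp5f1a (-1.52) and Atp5f1b (-1.30) fell, and so did Atp5f1d (-1.35) and Atp5f1e (-1.32). The peripheral stalk subunits Atp5po (-1.49), Atp5pf (-1.15), Atp5pd (-1.11) and Atp5pb (-1.09) fell too. Of the membrane part, Atp5mk, a small subunit also called DAPIT, had signals of 24583, 8698, 21666 and 8929 with the drug, against 39454, 52191, 42453 and 39653 with vehicle. Its log2 difference was -1.60 ± 0.35 (SE, adjusted p = 0.000763). Atp5me (-1.49), Atp5mpl (-1.47), Atp5mf (-1.14), Atp5mc3 of the proton-driven ring (-1.08) and Atp5mg (-1.03) also fell. Dimmer probe sets of Atp5me and Atp5po gave -0.01 and -0.94 and did not pass the test.

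The ATP synthase inhibitor Atp5if1, a small protein that binds the catalytic head and stops it from splitting ATP, rose while the enzyme's subunits fell. It had signals of 2841, 3094, 3566 and 3277 with the drug, against 1301, 1401, 1084 and 1166 with vehicle. The arrays did not overlap, and the log2 difference was 1.36 ± 0.21 (SE, adjusted p = 3.33e-05), or 257% of the vehicle level. A second, dimmer probe set of Atp5if1 gave 0.58 and did not pass the test (adjusted p = 0.263), so the rise rests on the brighter one.

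Markers of other cells moved with these changes. The summed signal of 11 macrophage markers was 62376 to 140974 in exercised gastrocnemius at 1.0 mg/kg/day, against 5183 to 6520 with vehicle, and all 11 rose. The sum of 6 markers of dividing cells was 5283 to 13106 with the drug, against 429 to 909 with vehicle, and all 6 rose. The sum of 11 fast-fibre markers was 150116 to 345666, against 695695 to 790665, and 9 fell; of 10 slow-fibre markers 1 fell. Of 7 fibroblast markers 5 rose, and of 4 endothelial, 4 adipocyte and 2 erythroid markers none passed the test (limma). Arrays 2 and 4, lowest for the members, had the highest macrophage sums (120658 and 140974, against 62376 and 99413 in arrays 1 and 3) and the lowest fast-fibre sums (152282 and 150116, against 345666 and 342697). They also had the lowest signals of the slow myosin Myh7 in the group (91.9 and 1719, against 42294 and 37253 in arrays 1 and 3). The exercised vehicle arrays ranged from 164.6 to 84953 for Myh7, so low values occurred there too. The part of these markers in the member results was not tested.

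**Figure D4:**
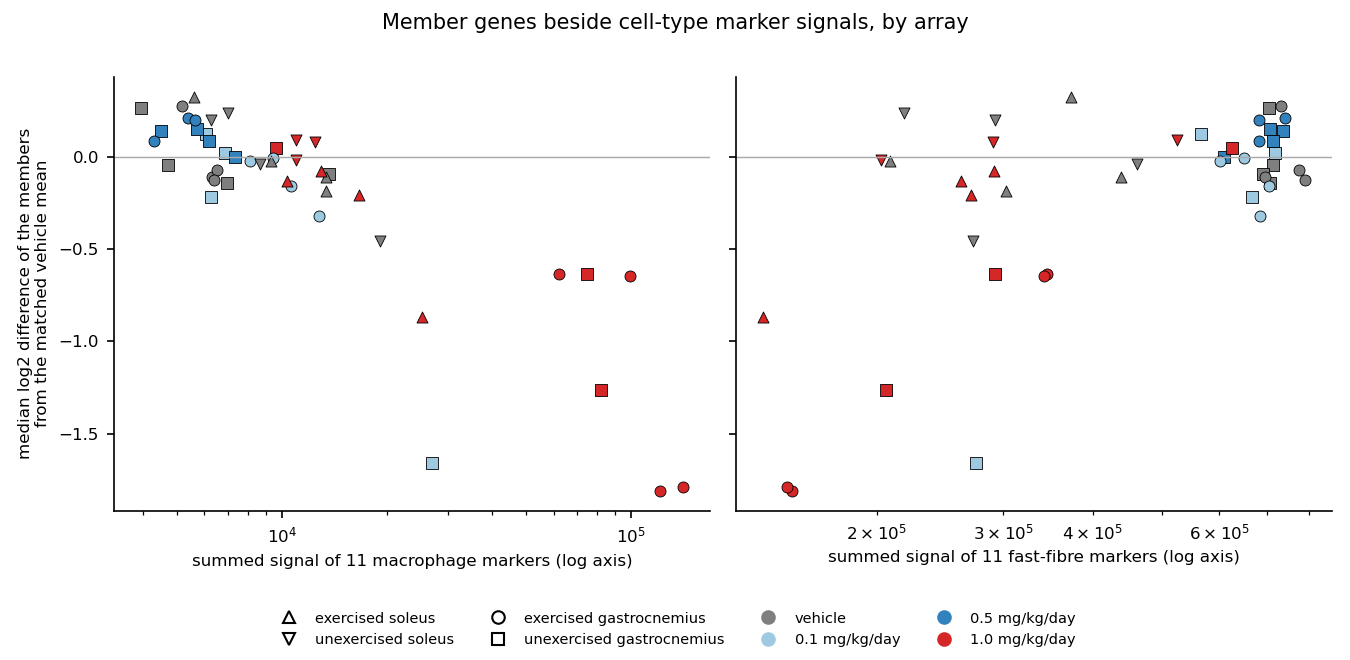
Median log2 difference of the 47 tested genes from the matched vehicle mean in each of the 45 arrays, against the summed signal of 11 macrophage markers (left, log axis) and of 11 fast-fibre markers (right, log axis), with shapes for muscle and exercise state and colours for dose. The 6 arrays with a macrophage sum of 62376 or more, all gastrocnemius at 1.0 mg/kg/day, lie between -1.81 and -0.64.

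Other mitochondrial genes were read against the same background, in which 21.9% of all genes fell and 27.7% rose. Of 19 tested regulators of mitochondrial biogenesis 9 fell, 2 rose and 8 did not pass the test, with a median log2 difference of -0.61. Perm1, a muscle regulator of oxidative genes, fell by 3.52 ± 0.92 (SE, adjusted p = 0.00321), and the coactivators Ppargc1a (-2.02) and Ppargc1b (-1.45), Esrra (-1.25) and the mitochondrial DNA factor Tfam (-0.55) fell too, whereas the coactivator Pprc1 (1.11) and Gabpb1 (0.55) rose. Of 34 tested assembly factors of complexes II to V, which include Sdhaf2, Sdhaf3 and Sdhaf4, 20 fell, led by Fmc1 (-2.02 ± 0.42, SE), and 1, Coa4, rose (median -0.70), while Cox11 (1.89) did not pass the test. Of 21 other mitochondrial membrane and matrix proteins 13 fell (median -0.79), led by the aspartate-glutamate carrier Slc25a12 (-2.42 ± 0.54, SE), and 1 rose: the adenine nucleotide carrier Slc25a5, the form of most tissues, rose by 2.83 ± 0.36 (SE, adjusted p = 7.11e-06), and Slc25a4, the muscle form, fell by 1.60. All 35 tested subunits of complex I fell, with a median of -1.37, led by Ndufs3 (-2.22) and Ndufa5 (-2.19). Without exercise, at 1.0 mg/kg/day, these 4 lists held 1 gene that fell and 1 that rose, with medians of -0.41, -0.39, -0.28 and -0.77. Ppargc1b, Esrra, Tfam, Pprc1, Gabpb1, Coa4 and Slc25a4 were picked after their values were seen.

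In unexercised gastrocnemius the members pointed the same way at 1.0 mg/kg/day, with smaller differences and fewer genes past the test. Of the 47 genes 44 had a negative log2 difference, with a median of -0.60. None fell past the threshold by its representing probe set, and 2 rose (limma, n = 3 against 4). Of all genes 3.96% fell and 7.32% rose. A second, dimmer probe set of Sdhaf2 did fall (-1.76, limma adjusted p = 0.0342). That of Atp5if1 gave 0.67 and did not pass the test (adjusted p = 0.331). All drug arrays lay below all vehicle arrays for 2 members, against 7.47% of all genes, and above them for 0, against 8.73% of all genes. At an unadjusted p under 0.05, 18 members passed, 16 of them negative, while 31.6% of all genes passed. The 2 rises, of Cox6a1 and Atp5if1, were both lost without vehicle array 2 or 3, without drug array 1 or 2, and with only the compared groups in the fit. Cox6a1 had signals of 7682, 7022 and 4061 with the drug, against 4345, 2550.5, 2939 and 3522.5 with vehicle. Drug array 3 lay within the vehicle range, and the log2 difference was 0.88 ± 0.27 (SE, adjusted p = 0.043). Atp5if1 had signals of 3122, 3879 and 1795 with the drug, against 1949, 1396, 1346 and 1518 with vehicle, with the same array inside the vehicle range (0.86 ± 0.23, SE, adjusted p = 0.0253). Cox8b had signals of 26786, 11929 and 45136.5 with the drug, against 59521, 45952, 46126 and 44797 with vehicle. Array 3 again overlapped vehicle, and the difference of -1.002 ± 0.64 did not pass the test (SE, adjusted p = 0.323).

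The result in unexercised gastrocnemius turned on array 3. That array had a macrophage marker sum of 9646, against 74877 and 82018 in arrays 1 and 2 of the group and 3953 to 13678 with vehicle, and a Myh4 signal of 54422, against 6250 and 6458 in arrays 1 and 2. Without it 19 members fell and 2 rose, against 12.9% of all genes that fell and 18.2% that rose, and the median log2 difference was -0.97. With arrays weighted by their agreement with the fit, 37 fell, against 24.7% of all genes. Without array 3 of the unexercised 0.1 mg/kg/day group, which enters the shared estimate of spread, 7 fell, against 9.04% of all genes. The interaction of exercise with 1.0 mg/kg/day passed the test for no member and for 0% of all genes (limma); 1 member, Cox6c-ps1 (-1.18 ± 0.33, SE, adjusted p = 0.705), passed at an unadjusted p under 0.05, against 6.68% of all genes, and the median interaction was -0.54. Directly compared at 1.0 mg/kg/day, no member passed between exercised and unexercised gastrocnemius (0% of all genes, limma). At an unadjusted p under 0.05 the 3 members Cox8b (-1.52), Cox6a2 (-1.17) and Cox6c-ps1 (-0.78) passed, a smaller share than the 13.4% of all genes, and the median was -0.50. Without array 3 both comparisons had 0 calls, with medians of -0.21 and -0.16. With array weights these counts were 16 and 36 lower members, against 6.62% and 15.6% of all genes, so a difference between exercise states depended on how the arrays were weighted.

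At 0.1 and 0.5 mg/kg/day no member passed the test in either exercise state, nor did any other gene (0%, limma). No member passed at an unadjusted p under 0.05 either. The shares of all genes at that threshold were 2.72% and 2.37% with exercise and 3.79% and 2.22% without it, at 0.1 and 0.5 mg/kg/day. In exercised gastrocnemius the median member difference was -0.12 at 0.1 and 0.16 at 0.5 mg/kg/day. In unexercised gastrocnemius it was -0.43 at 0.1 and 0.09 at 0.5 mg/kg/day, and at 0.1 it was -0.04 without array 3. Cox8b at 0.5 mg/kg/day in exercised rats had signals of 48779, 51449 and 48955, within the vehicle range given above. In that same state Cox6a1 had 3776, 3528 and 3230, of which the first exceeded the highest vehicle array. Running alone took no member past the test in vehicle rats. The median difference between exercised and unexercised animals was 0.07 in gastrocnemius and 0.19 in soleus, with 0 members past the test (0% of all genes, limma). At an unadjusted p under 0.05 there were 0 members in either muscle, against 2.46% of all genes in gastrocnemius and 2.5% in soleus.

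In the soleus no member passed the test at 1.0 mg/kg/day, with or without exercise (0% of all genes, limma). At an unadjusted p under 0.05, 0 passed without exercise and 3 with it: Cyc1 (-0.51), Cox5b (-0.44) and Atp5pf (-0.41). The shares of all genes were 2.36% without exercise and 5.24% with it, so 3 of 47 is near the background. Cox8b had signals of 25287, 44146, 41663 and 47201 in exercised soleus with the drug, against 47351, 58882, 43712 and 46666 with vehicle. Array 1 of the drug group was far below the rest, array 3 lay just under the vehicle arrays, and arrays 2 and 4 lay among them. In unexercised soleus Cox8b had 43837, 39886 and 43238 with the drug, against 50072.5, 41100, 33550.1 and 40160.5 with vehicle, which overlapped. The median member difference was -0.32 in exercised soleus, and -0.14 without array 1; in unexercised soleus it was 0.06. Macrophage marker sums were 10323 to 25287 in exercised soleus with the drug, against 5596 to 13408 with vehicle.

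In exercised rats the difference that 1.0 mg/kg/day made was tested between the muscles, as the soleus difference minus the gastrocnemius difference. It was positive past the threshold for 8 members and negative for 3, against 12.5% and 16.8% of all genes, with a median of 0.95 over the members (limma, all 45 arrays). The 8 were Cox8b (2.18 ± 0.72, SE, adjusted p = 0.0241), Cox6a2 (1.48), Sdhaf3 (1.45), Cox6c-ps1 (1.29), Atp5mk (1.27), Uqcr11 (1.20), Atp5f1b (1.02) and Sdhaf1 (0.79). The 3 negative ones were Cox6a1 (-1.63 ± 0.32, SE, adjusted p = 0.000702), Atp5if1 (-1.46) and Cox8a (-0.85), the genes that rose in gastrocnemius. The count of 8 was not stable: leaving out single arrays gave between 1 and 23, with 1 without array 4 and 2 without array 2 of exercised gastrocnemius at 1.0 mg/kg/day, and 23 without array 1 or 3 of it or array 1 of exercised soleus at 1.0 mg/kg/day. It was 3 without array 2 or 3 and 4 without array 4 of that soleus group, 4 and 3 without arrays 3 and 4 of exercised vehicle soleus, and 4 without array 2 of exercised vehicle gastrocnemius. The count was 40 with array weights, 25 without array 3 of unexercised gastrocnemius at 0.1 mg/kg/day and 1 without the 6 soleus arrays of high Myh4, against 22.7%, 15.4% and 9.12% of all genes, while the count of negative members was 3 under each of these 3 settings. In unexercised rats no member passed (0.00856% of all genes in each direction, limma), with 4 at an unadjusted p under 0.05, against 21% of all genes, and a median of 0.69. Without array 3 of unexercised gastrocnemius at 1.0 mg/kg/day, 5 members were positive and 2 negative there, against 8.45% and 11.3% of all genes.

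Vehicle muscles differed in few members, and the share of members higher in soleus was near that of all genes. The members past the test were Cox6a1, Cox8a and Atp5if1. In exercised vehicle rats the soleus had more Cox6a1, Cox8a and Atp5if1 than the gastrocnemius, and no member gene was lower by its representing probe set. Of all genes 7.56% were higher and 7.58% lower. A dimmer probe set of Atp5po was lower (-1.32, limma adjusted p = 0.0199). A dimmer one of Atp5if1 gave 0.73, and 0.96 in unexercised rats, and passed in neither (adjusted p = 0.182 and 0.101). Cox6a1 had signals of 6010.5, 6222, 5746 and 5948.5 in soleus, against 2587, 3646, 2539 and 1996 in gastrocnemius, without overlap (log2 difference 1.18 ± 0.23, SE, adjusted p = 0.000591). Cox8a had 11880, 13832, 11686 and 11062 in soleus, against 5642, 8284, 5490 and 5196 in gastrocnemius (1.00 ± 0.17, SE, adjusted p = 0.000176). Atp5if1 had 3299, 4106, 2686 and 2794 in soleus, against 1301, 1401, 1084 and 1166 in gastrocnemius (1.36 ± 0.24, SE, adjusted p = 0.000216). The muscle forms did not pass the test, with differences of -0.01 ± 0.51 for Cox8b and 0.09 ± 0.38 for Cox6a2 (SE). The median over the members was -0.04, and Sdhaf3 (-0.88 ± 0.35, SE, adjusted p = 0.0824) was the remaining member of the 4 at an unadjusted p under 0.05, against 31.2% of all genes. In unexercised vehicle rats Cox8a (0.74) and Atp5if1 (0.79) passed and Cox6a1 did not (0.71 ± 0.23, SE, adjusted p = 0.0505), against 3.83% of all genes that were higher and 4.54% that were lower. Only Cox8a passed without any 1 of gastrocnemius arrays 2, 3 and 4 or soleus arrays 1, 2 and 4, and with each array centred on its median, and only Atp5if1 without the soleus arrays of high Myh4. Of all genes called there, 54.2% were lower in soleus, and 64.6% after each array was centred on its median. In exercised vehicle rats 8 of 10 slow-fibre markers were higher in soleus, 7 of 11 fast-fibre markers lower and 2 of 4 adipocyte markers higher; their part in the isoform differences was not tested.

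The balance of the muscle form over the other form was taken within each array as the difference of their log2 values, and only changes of that difference between groups were compared. In exercised gastrocnemius at 1.0 mg/kg/day Cox8b minus Cox8a was 1.65, -2.18, 1.22 and -2.09, against 2.97, 2.70, 3.16 and 3.24 with vehicle. The means were -0.35 ± 2.07 and 3.02 ± 0.24 (SD, n = 4 each), a difference of -3.37 (exact two-sided permutation p = 0.0286, the smallest possible, and 0.0429 after Benjamini-Hochberg adjustment over 12 tests). Cox6a2 minus Cox6a1 was 0.98 ± 1.43 with the drug and 4.27 ± 0.34 with vehicle (SD, n = 4 each), a difference of -3.29 with the same exact p. Without vehicle array 1, 2, 3 or 4 the difference of Cox8b over Cox8a was -3.38, -3.47, -3.32 or -3.29. It did not pass in any of these (exact permutation test, adjusted p = 0.114 each). That of Cox6a2 over Cox6a1 passed with each single array left out. In unexercised gastrocnemius at 1.0 mg/kg/day the differences were -1.41 for Cox8b over Cox8a and -1.48 for Cox6a2 over Cox6a1, again at the smallest exact p, and array 3 was the closest to vehicle in both. With single arrays of these 7 left out, the differences ranged from -1.99 to -0.81 for Cox8b over Cox8a and from -2.02 to -1.11 for Cox6a2 over Cox6a1, with too few arrays for the exact test to pass. A low balance was not confined to 1.0 mg/kg/day. Array 3 of unexercised gastrocnemius at 0.1 mg/kg/day, of low actin ratio and high adipocyte sum, had -0.67 for Cox8b over Cox8a and 0.52 for Cox6a2 over Cox6a1. The other arrays of that group had 2.13 to 3.05 and 3.47 to 4.28. Balances at 0.1 and 0.5 mg/kg/day were not tested.

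The same balances were lower in vehicle soleus than in vehicle gastrocnemius. In exercised rats Cox8b minus Cox8a was 2.02 ± 0.09 in soleus and 3.02 ± 0.24 in gastrocnemius (SD, n = 4 each), and Cox6a2 minus Cox6a1 was 3.18 ± 0.16 and 4.27 ± 0.34 in the same order of muscles. The differences were -1.002 and -1.10 in exercised rats and -0.99 and -0.90 in unexercised rats, each at the smallest exact p of 0.0286 (0.0429 adjusted). Those in exercised rats passed with each single array left out. In unexercised rats neither passed without vehicle gastrocnemius array 1, 2, 3 or 4 (exact permutation test, adjusted p = 0.0571 each). Within soleus the drug moved neither balance past the test with all arrays. For Cox8b over Cox8a the difference was -0.34 in exercised rats (exact p = 0.0571, adjusted 0.0762) and 0.25 in unexercised rats (exact p = 0.314). Without drug array 4 the difference in exercised soleus was -0.43 and passed (exact permutation test, adjusted p = 0.0381). For Cox6a2 over Cox6a1 the drug differences in soleus were -0.17 and 0.23 (exact p = 0.971 and 0.686).

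**Figure D5:**
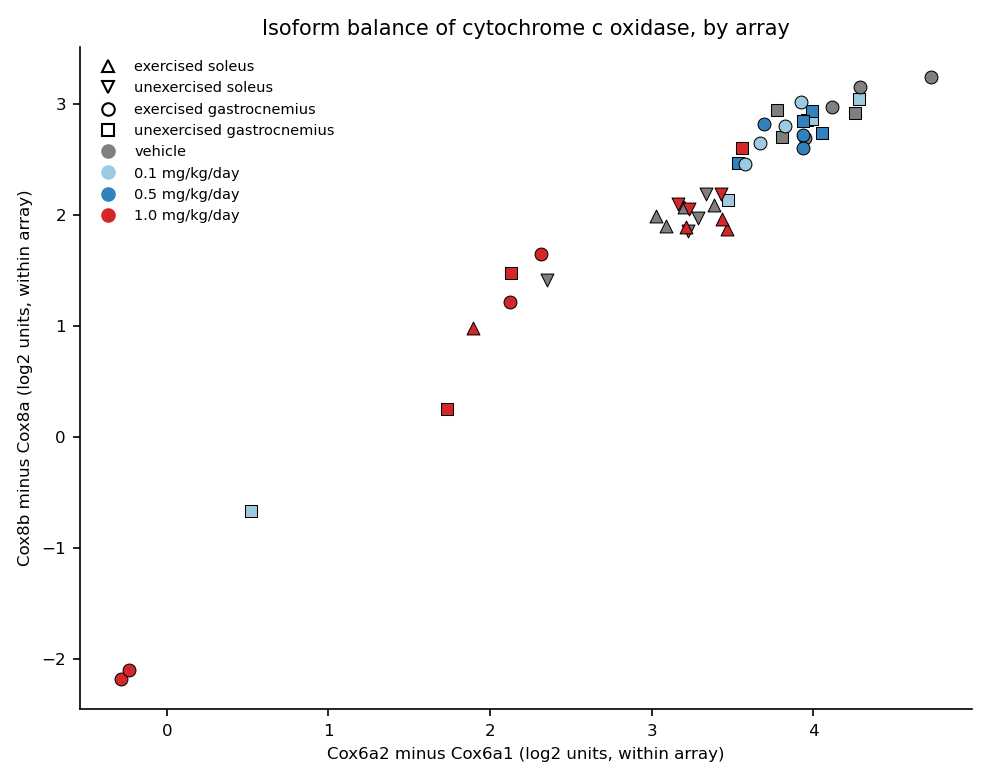
Cox8b minus Cox8a against Cox6a2 minus Cox6a1, in log2 units within each of the 45 arrays, with shapes for muscle and exercise state and colours for dose. Exercised gastrocnemius arrays 2 and 4 at 1.0 mg/kg/day lie at the lower left with -2.18 and -2.09 on the vertical axis, and the 8 vehicle soleus arrays lie below the 8 vehicle gastrocnemius arrays on both axes. Array 3 of unexercised gastrocnemius at 0.1 mg/kg/day lies at -0.67 on the vertical and 0.52 on the horizontal axis.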

How the data were processed

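The 45 arrays measured RNA of gastrocnemius (30 arrays) and soleus (15 arrays) from rats. The authors deposited a linear signal intensity per probe set, with MAS5 named in the submitters' processing notes; each array had a trimmed mean of 600.2 to 600.3. The scanner files were not used here. From the 31099 deposited probe sets 57 controls were left out. Signals were taken as log2(signal + 12.4), where 12.4 is the 10th percentile of all values, so folds of dim genes are understated. The 21729 probe sets whose mean reached the 30th percentile were tested with limma 3.58.1 in R 4.3.3 (group means, eBayes with trend) over all arrays of the muscle or muscles compared, and p-values were adjusted by Benjamini-Hochberg over all of them, with a threshold of 0.05. The script was tested on simulated data. A gene is represented by its tested probe set with 1 symbol and the highest mean. Isoform balances were compared by exact permutation tests.

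Values in every array are given for the isoform pairs, for the members with the 2 largest falls and rises of each complex in exercised gastrocnemius at 1.0 mg/kg/day, for members past the threshold against the majority, and for Cyc1; of the other lists, the 2 largest changes are named. The Cox7a pair was left out of the balances, because the Cox7a2 probe set carries several symbols. The members, lists and this rule were chosen with earlier results of these data known. Groups came from the sample labels; soleus samples whose titles do not mention exercise were taken as unexercised. No pair of arrays was identical (highest correlation 0.966). The number of arrays limits the precision. Alternatives were other offsets, filters, normalizations and variance models, the compared groups alone, a replicate block, means over probe sets, and each array left out. Leaving out the aberrant array at 0.1 mg/kg/day or the soleus arrays of high Myh4 was added after seeing the data.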

Additional observations from a re-analysis of the deposited data

Results flagged for a closer look

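Single arrays stood far from the other 3 of their group of 4 for 15 of 126 combinations of a named gene and a group (11.9%). In these the gap to the nearest array over the range was above Dixon's critical value. The combinations share arrays, so 1 array can count several times, and some genes were chosen by their results. The share therefore cannot be set against a chance rate. In unexercised gastrocnemius at 0.1 mg/kg/day, array 3 was low, on the log2 scale, for Atp5f1c (13.57), Atp5mk (13.60), Cox8b (12.98) and Sdhaf3 (8.52). In exercised soleus at 1.0 mg/kg/day, array 1 was low for Atp5mk (14.34) and Uqcrc1 (13.85) and high for Cox6a1 (12.90). In exercised gastrocnemius, array 1 at 1.0 mg/kg/day was low for Cox8a (13.13), and array 4 at 0.1 mg/kg/day was low for Cox6a2 (15.36). Among vehicle arrays, array 1 of unexercised gastrocnemius was high for Cox8b (15.86) and Uqcrc1 (15.18), and array 4 of that group was low for Sdhaf3 (10.29). Array 2 of exercised vehicle gastrocnemius was high for Uqcrc1 (15.16), array 2 of exercised vehicle soleus was high for Cox4i1 (15.67), and array 3 of unexercised vehicle soleus was low for Sdhaf3 (9.499).

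In exercised rats the effect of 1.0 mg/kg/day differed between soleus and gastrocnemius for 11 members by the interaction term (limma, adjusted p under 0.05), 8 positive and 3 negative, against 12.5% and 16.8% of all genes. With single arrays left out the positive count ranged from 1 to 23. The soleus minus gastrocnemius differences were 2.18 for Cox8b, 1.48 for Cox6a2, 1.45 for Sdhaf3, 1.29 for Cox6c-ps1, 1.27 for Atp5mk, 1.20 for Uqcr11, 1.02 for Atp5f1b and 0.79 for Sdhaf1. They were -1.63 for Cox6a1, -1.46 for Atp5if1 and -0.85 for Cox8a.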

How the results depend on the processing

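In exercised gastrocnemius at 1.0 mg/kg/day the members that fell numbered 35 to 43 under all settings and the members that rose 3 or 4. There the median of all genes moved from 0.07 to -0.03 with median centring and -0.04 with quantile normalization, and the member median to -1.33 and -0.84. In the exercised interaction of muscle and dose, the median of all genes moved from -0.08 to 0.05 with median centring. In unexercised gastrocnemius 37 members fell with array weights, 1 with means over probe sets and 7 without the aberrant array at 0.1 mg/kg/day; 1 rose without the filter, without the trend, with the replicate block and with means over probe sets, and 0 with only the compared groups. Array weights gave 16 lower members for the interaction of exercise and dose and 36 for exercised against unexercised rats at 1.0 mg/kg/day. Between unexercised vehicle muscles 1 member was higher in soleus with median centring, against 305 of 11684 genes, or without the soleus arrays of high Myh4, against 1.36% of all genes. There 1 was lower with array weights or without the aberrant array, against 8.98% and 6.91% of all genes. Between exercised vehicle muscles 1 was lower with these 2 settings, against 13.7% and 9.83% of all genes, and with only the compared groups. The exercised interaction of muscle and dose had 40 positive members with array weights, 25 without the aberrant array and 1 without the soleus arrays of high Myh4. The unexercised one had 25 positive and 3 negative members with array weights, against 17.3% and 20.8% of all genes. Without the aberrant array it had 1 negative member, against 2.02% of all genes. Leaving out single arrays gave 0 to 19 lower and 0 to 2 higher members in unexercised gastrocnemius at 1.0 mg/kg/day, 1 to 3 higher in unexercised vehicle soleus, 1 to 23 positive in the exercised interaction, and 0 to 5 positive and 0 to 2 negative in the unexercised one. It gave balances of Cox8b over Cox8a of -4.03 to -2.76 in exercised and -1.99 to -0.81 in unexercised gastrocnemius, -0.43 to -0.10 in exercised soleus and -1.11 to -0.85 between unexercised vehicle muscles. For Cox6a2 over Cox6a1 it gave -2.02 to -1.11 in unexercised gastrocnemius and -0.998 to -0.672 between unexercised vehicle muscles. In unexercised gastrocnemius the smaller number of arrays raises the smallest possible p of the exact test. Other causes, and those of the changes in the other balances, were not tested. The replicate numbers share no labelled litter or day, and correlations of same-numbered arrays had mixed signs; the block moved no other count of calls by over 1.5 times. No result changed direction past the threshold.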
